A study of Rattus norvegicus with 10 samples.

Results

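The S phase set described here comprises 52 genes of DNA replication in RPE-J, an SV40-transformed line of retinal pigment epithelium (RPE) from the Long-Evans strain of rat. The members were chosen by gene name, from the licensing factors at replication origins to the checkpoint and repair genes of S phase, and all 52 had reads in all 10 libraries, as did 13391 genes in total. Polyadenylated RNA was sequenced from 1 library per condition. PNU-282987, called PNU below, activates the α7 type of nicotinic acetylcholine receptor and was given at 100 nM for 30 min, 1 h, 3 h, 8 h or 12 h. Nicotine, which the design calls the positive control for receptor activation, was given at 1 µM for 1 h or 12 h. MLA, which the design calls the negative control, was given at 100 nM for 1 h or 12 h. The vehicle DMSO was given for 12 h. There was no vehicle library at the earlier times, so in every comparison between times the compound and the time in culture cannot be told apart. With 1 library per condition no difference between 2 conditions has a replicate check. All cells belong to 1 transformed line and were lifted from flasks with trypsin before RNA was extracted.

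DNA replication starts at origins that are licensed in G1, when the origin recognition complex, CDC6 and CDT1 load the ring-shaped MCM helicase onto DNA. CDC45 and the GINS complex then switch the helicase on, primase and DNA polymerases copy both strands around the PCNA clamp, and flap removal and ligation join the pieces. Many of these genes are transcribed in late G1 and S phase by E2F factors, which the retinoblastoma proteins hold back and which cyclin E kinase activity helps to release. The large T antigen of SV40 binds the retinoblastoma proteins, and differentiated RPE of the adult eye normally does not divide.

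Reads in the listed genes numbered between 15220638 in PNU 8 h and 31510333 in MLA 12 h. A level below is the read number of a gene divided by the library's scale factor, set once over all 10 libraries. Levels are not corrected for gene length and are therefore not compared between genes. Cell type markers were checked first. Of 12 RPE markers, 5 had a value in all 10 libraries, with mean levels of 5642 for Best1, 3935 for Krt8, 507 for Pmel, 155 for Mitf and 19.2 for Rlbp1. Rpe65, Otx2, Tyr, Tyrp1, Krt18, Ttr and Cdh1 had none, so several defining markers of the labelled cell type were not measured in all libraries. Nicotine 1 h and PNU 3 h stood apart from the other libraries. The interquartile range of the 52 members around their own means was 0.244 log2 units in nicotine 1 h and 0.239 in PNU 3 h, against 0.0662 in MLA 12 h, the narrowest. Over the 6235 genes at or above the lowest mean level of any member it was 0.296, 0.268 and 0.0926. Reads in these 2 libraries numbered 26283462 and 20740579, within the range of the others. Some marker levels, of RPE and of other cell types, had their extremes in nicotine 1 h or PNU 3 h. The summed level of the 5 measured RPE markers ran from 9245 in nicotine 12 h to 11535 in PNU 3 h, with 11488 in nicotine 1 h. Col1a1, the only 1 of 6 fibroblast markers measured, ran from 21567 in nicotine 12 h to 48454 in PNU 3 h, and the summed level of the 5 measured of 6 Müller glia markers ran from 43820 in PNU 30 min to 65473 in nicotine 1 h, nearly all of it Vim. The 3 measured of 6 photoreceptor markers summed to between 61.5 and 93.0, the 3 of 4 immune markers to between 206 and 269, and the 2 of 3 endothelial markers to between 28.1 and 80.7. The part of these shifts in the results below was not tested, and the count of members with wide ranges and the limma fits are given with and without nicotine 1 h and PNU 3 h.

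Levels of the replication genes differed little between the 10 conditions. The highest of a member's 10 levels was a median of 1.252-fold above its lowest, from 1.11-fold for the helicase subunit Mcm2 to 1.999-fold for Tyms, the thymidylate synthase. This median was 1.306-fold over the 6235 genes at or above the lowest mean level of any member, called genes at the members' levels. It was 1.376-fold over all 11190 tested genes. In 7 of 52 members (13.5%) the levels spanned at least 1.5-fold, against 31.9% of the 11190 genes with a mean level of at least 50 and 18.3% of the genes at the members' levels. These were Tyms, Pola1, Cdt1, Ccne2, Slbp, Dtl and Fen1. None of the 52 spanned 2-fold. Without nicotine 1 h and PNU 3 h, 1 of 52 members spanned at least 1.5-fold, Tyms with 1.57-fold. The same held for 15.7% of all tested genes and 4.72% of the genes at the members' levels. The median range in these 8 libraries was 1.18-fold for the members and 1.22-fold for the genes at their levels. The median member stood within 0.05 log2 units of its own mean in every library, from -0.050 in nicotine 1 h to 0.035 in MLA 1 h. The summed level of the 52 members was 229663 in MLA 1 h and 212798 in nicotine 1 h, the highest and the lowest. In bulk RNA, fewer cells in S phase and less replication mRNA per cell cannot be told apart.

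**Figure D1:**
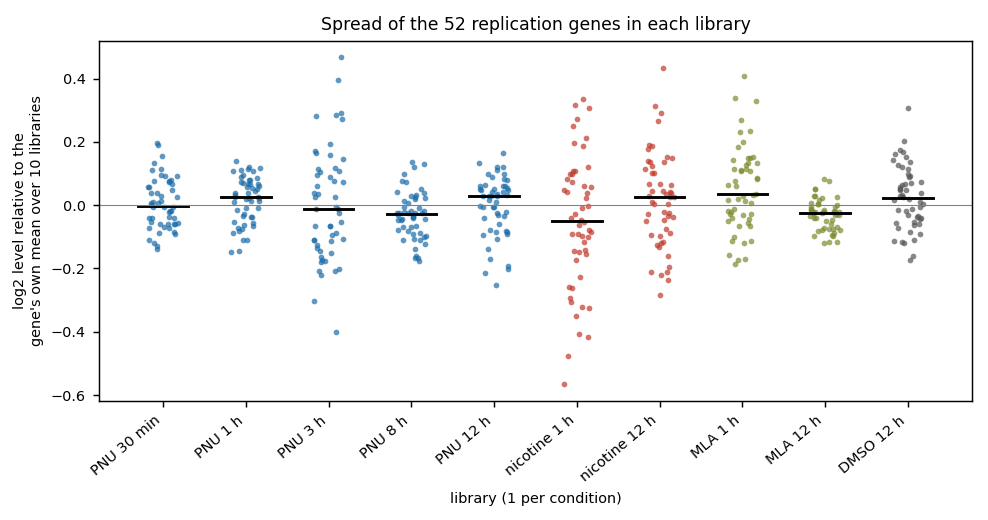
Log2 level of each of the 52 replication genes relative to its own mean over the 10 libraries (y axis), by library (x axis, 1 library per condition). Points are genes and the bar is their median. The medians lie between -0.050 and 0.035, and the points spread widest in nicotine 1 h and PNU 3 h.

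Among the origin licensing genes, Cdt1, which loads the helicase together with CDC6, had the widest span. Its level was 1356, 1406, 2068, 1469.5 and 1544 in the 5 PNU libraries in order of time, 1228 in nicotine 12 h, 1885 in nicotine 1 h, 1418 in MLA 12 h, 1376 in MLA 1 h and 1376 in DMSO 12 h. PNU 3 h and nicotine 1 h were both above the other 8 libraries, which lay between 1228 and 1544. The other 3 genes of the group spanned 1.16-fold to 1.20-fold, with Cdc6 lowest at 2013 in PNU 8 h, at a median of 2182 and highest at 2408 in nicotine 12 h.

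The 6 subunits of the MCM helicase did not share 1 pattern. Mcm4 was highest in nicotine 12 h with 8503, at a median of 7524, and its lowest libraries were nicotine 1 h with 5968 and PNU 3 h with 6458. Mcm6 was lowest in nicotine 12 h with 8281, at a median of 8693, and its highest libraries were PNU 3 h with 10920 and nicotine 1 h with 10759. The products of these 2 genes sit in the same hexamer, yet their highest and lowest libraries were opposite. Mcm7 was also highest in nicotine 1 h, with 17984, and Mcm2, Mcm3 and Mcm5 spanned 1.11-fold to 1.17-fold.

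Of the genes that switch the helicase on, Gins2, a GINS subunit, was highest in nicotine 1 h (1568) and PNU 3 h (1538) and lay between 1148 and 1273 in the other 8 libraries. Gins4 was highest in PNU 12 h with 1854, at a median of 1638 and lowest in PNU 3 h with 1504. Mcm10, Cdc45, Gins1 and Gins3 spanned 1.12-fold to 1.22-fold.

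Pola1 encodes the catalytic subunit of polymerase α, which extends the primers. It had 3155, 2957, 2363, 3169 and 2590.2 in the 5 PNU libraries in order of time, 3568 in nicotine 12 h, 2092 in nicotine 1 h, 3083 in MLA 12 h, 3512 in MLA 1 h and 3009.5 in DMSO 12 h. Nicotine 1 h and PNU 3 h were its 2 lowest libraries. The gene for its partner subunit, Pola2, spanned only 1.13-fold. Prim2, the large primase subunit, ran from 988 in PNU 3 h to 1281 in nicotine 12 h with a median of 1173. Prim1, the primase catalytic subunit, lay between 27301 and 31859. The gene next to Prim1 in RefSeq, Naca, had levels between 24631 and 29869, and whether reads of 1 of these genes were counted for the other was not tested. The catalytic subunits of polymerases δ and ε, Pold1 and Pole, spanned 1.26-fold and 1.21-fold.

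The 6 genes of the sliding clamp and its loader spanned 1.19-fold to 1.35-fold. Pcna, the clamp that tethers polymerases to DNA, ran from 10562 in nicotine 1 h to 12526 in MLA 1 h, with a median of 11292. Rfc1, the large loader subunit, was lowest in nicotine 1 h (1654) and PNU 3 h (1764) and lay between 2036 and 2234 elsewhere. Rfc4 was highest in DMSO 12 h with 6032, at a median of 5245 and lowest in PNU 8 h with 4637. Rfc2, Rfc3 and Rfc5 spanned 1.21-fold to 1.26-fold.

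Fen1, which cuts the flaps of Okazaki fragments, had the same 2 high libraries as Cdt1. Its level was 1916, 1901, 2615, 1929 and 2044 in the 5 PNU libraries in order of time, 1736 in nicotine 12 h, 2403 in nicotine 1 h, 1869 in MLA 12 h, 1765 in MLA 1 h and 1866 in DMSO 12 h. PNU 3 h and nicotine 1 h were above the other 8. Exo1, an exonuclease of mismatch repair, ran from 608 in PNU 1 h to 761 in nicotine 12 h with a median of 665. Lig1, which seals the fragments, spanned 1.22-fold, and Rpa1 and Rpa2, which coat single-stranded DNA, 1.18-fold and 1.16-fold.

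Tyms, the thymidylate synthase that makes dTMP from dUMP, varied most of all 52 members. It had 1502, 1429, 998, 1287 and 1135 in the 5 PNU libraries in order of time, 1777 in nicotine 12 h, 889 in nicotine 1 h, 1387 in MLA 12 h, 1746 in MLA 1 h and 1303 in DMSO 12 h. Nicotine 1 h and PNU 3 h were lowest, followed by PNU 12 h, while nicotine 12 h and MLA 1 h were highest. Rrm2, the ribonucleotide reductase subunit that is made in S phase, was lowest in nicotine 1 h (4959) and PNU 12 h (4989.6), with a median of 6159 and its highest level of 6823 in MLA 1 h. Rrm1, its partner subunit, spanned 1.24-fold, Dut, the dUTPase, 1.21-fold, and Tk1, the thymidine kinase, 1.11-fold.

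Slbp, which binds the stem-loop of histone mRNAs, had 6432, 6589, 5580.5, 5649.6 and 5718 in the 5 PNU libraries in order of time, 6642 in nicotine 12 h, 4569 in nicotine 1 h, 5768 in MLA 12 h, 7656 in MLA 1 h and 6876 in DMSO 12 h. Nicotine 1 h was the lowest and MLA 1 h the highest. The chromatin assembly factor genes Chaf1a and Chaf1b and the maintenance methylation factor Uhrf1 spanned 1.21-fold to 1.27-fold, with Chaf1b lowest at 797 in nicotine 12 h, at a median of 936 and highest at 1009 in DMSO 12 h.

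The 2 cyclin E genes, whose products activate CDK2 at S phase entry, were at opposite ends of their ranges in nicotine 1 h. Ccne2 had 2396, 2205, 2006, 2249 and 2029 in the 5 PNU libraries in order of time, 2876 in nicotine 12 h, 1745 in nicotine 1 h, 2402 in MLA 12 h, 2928 in MLA 1 h and 2602 in DMSO 12 h. Nicotine 1 h was its lowest library. Ccne1 was highest in nicotine 1 h with 2235, at a median of 1961 and lowest in DMSO 12 h with 1742. E2f1, a transcription factor of S phase genes, ran from 1214 in nicotine 12 h to 1635 in PNU 3 h with a median of 1442, and DMSO 12 h was near its top with 1601.

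Among the checkpoint, repair and turnover genes, Dtl, part of the ubiquitin ligase that removes CDT1 in S phase, had 1075, 993, 894, 939.6 and 839.9 in the 5 PNU libraries in order of time, 1160 in nicotine 12 h, 758 in nicotine 1 h, 951 in MLA 12 h, 1135 in MLA 1 h and 986 in DMSO 12 h. It was lowest in nicotine 1 h, where Cdt1 was second highest, and highest in nicotine 12 h, where Cdt1 was lowest. Tipin, a fork protection factor, was highest in DMSO 12 h with 1565, at a median of 1287 and lowest in nicotine 1 h with 1057. The deubiquitinase Usp1, the homologous recombination gene Brca1 and the helicase Blm were also lowest in nicotine 1 h, spanning 1.34-fold to 1.47-fold. Ung, which removes uracil from DNA, was highest in nicotine 1 h with 1837, and Clspn, an adaptor of the replication checkpoint, in PNU 3 h with 1604.

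**Figure D2:**
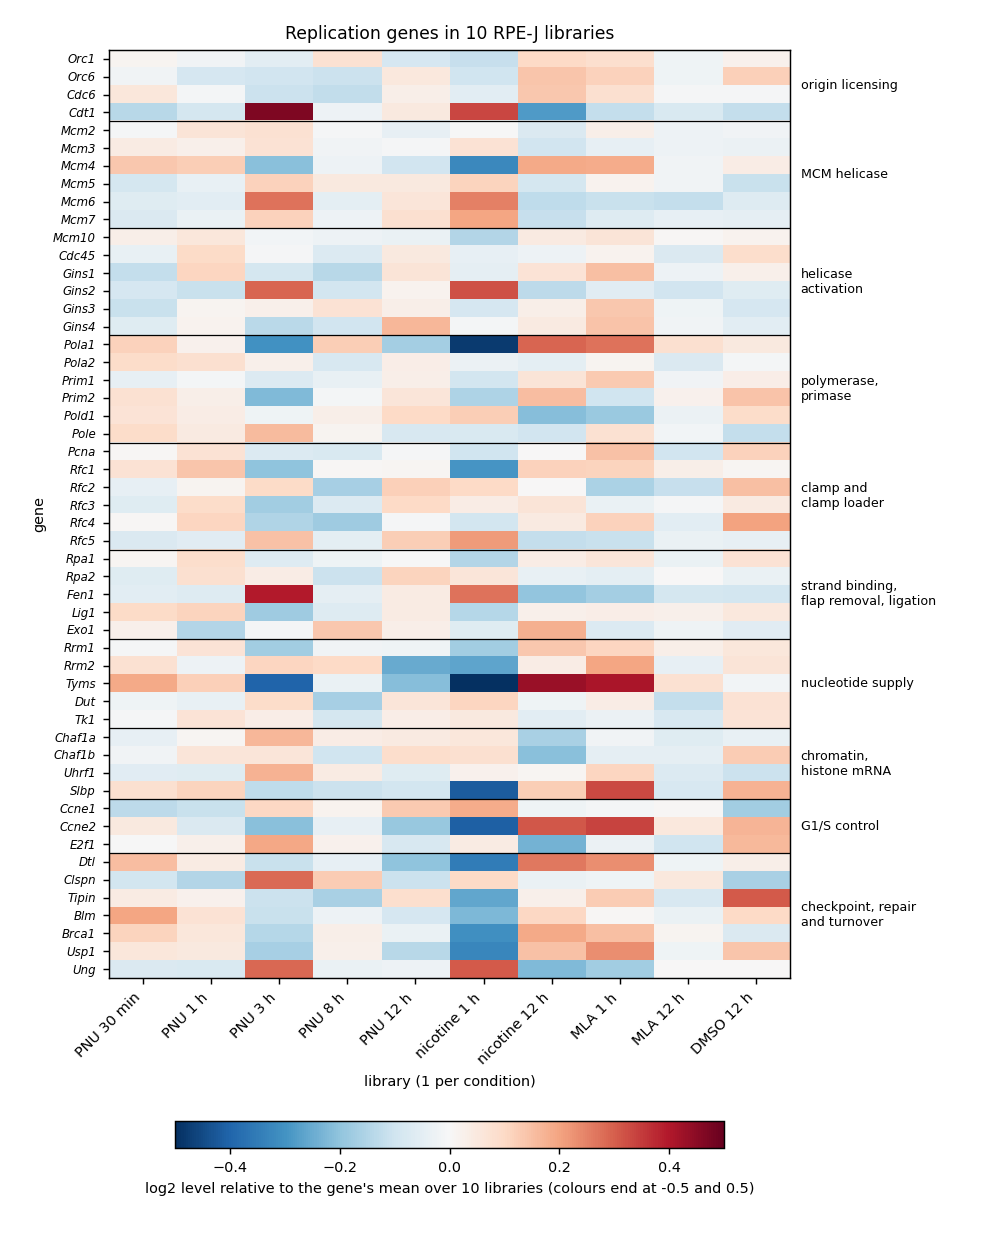
Log2 level relative to the gene's own mean over the 10 libraries (colour), for the 52 replication genes ordered by role (rows) in each library (columns). The darkest columns are nicotine 1 h and PNU 3 h, where Cdt1, Fen1, Gins2 and Ung are above their means while Tyms, Pola1 and Ccne2 are below, and nicotine 12 h and MLA 1 h show the reverse for the same genes.

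**Figure D3:**
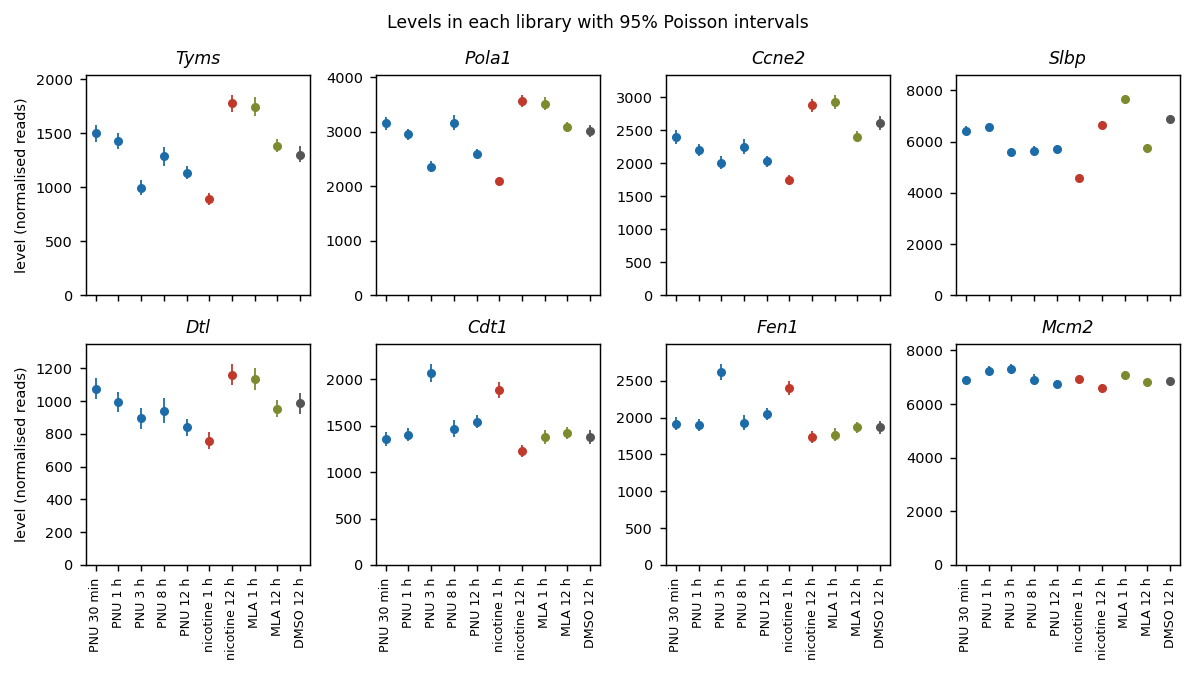
Levels of 8 members in each of the 10 libraries, with exact 95% Poisson intervals that cover counting error only. They are the 7 members that span at least 1.5-fold and Mcm2, the member with the smallest span.

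Many members followed 1 of 2 opposed patterns over 4 libraries, counted by the side of the mean alone, and others followed neither. The patterns were noticed after the values were seen and carry no test. In 23 of 52 members (44.2%), among them Tyms, Pola1, Ccne2, Slbp, Dtl, Mcm4, Usp1, Brca1 and Rfc1, the level was below the gene's own mean in nicotine 1 h and PNU 3 h and above it in nicotine 12 h and MLA 1 h. The same held for 27.4% of the 11190 genes tested. The reverse held for 15 of 52 members (28.8%), among them Cdt1, Fen1, Ung, Gins2, Mcm6, Mcm7 and Rfc5, against 26.5% of the genes. Both patterns were common over all genes, and neither share was counted over the genes at the members' levels. In nicotine 1 h, 12 of 52 members stood at least 0.2 log2 units below and 6 at least 0.2 above their own means, beside 22.7% and 18.1% of genes, and in PNU 3 h 6 stood on each side, beside 16.2% and 18.03%. Nicotine 1 h held the lowest level of 17 members (32.7%, against 23.4% of genes) and the highest of 7 (13.5%, against 17.1%). Nicotine 12 h held the lowest of 13 (25%, against 16.5%) and the highest of 11 (21.2%, against 15.6%). Over the members the 2 nearest libraries were PNU 8 h and MLA 12 h, with a median absolute difference of 0.0487 log2 units, and the 2 farthest were nicotine 12 h and nicotine 1 h, with 0.230. The members differed less than the genes at their levels in 37 of the 45 pairs of libraries. In 32 of the 45 pairs no member differed by 1.5-fold, where 0.5% to 4.94% of genes did. In the other 13 pairs 4.14% to 14.5% of genes did. All of these 13 but PNU 12 h against MLA 1 h or nicotine 12 h included nicotine 1 h or PNU 3 h.

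Promoter windows are shown for members at both ends of nicotine 1 h, because many replication genes are known E2F targets and the members lay on both sides of their means there. RefSeq (GRCr8) windows of 250 bases before to 50 bases after the gene start were available for 44 of the 52 members. They were searched on both strands for 4 words of the E2F type, TTTCCCGC, TTTCGCGC, TTTGCCGC and TTTGGCGC, and a gene with several matches was counted once. At least 1 word was found in 21 of the 44 members (47.7%) and in 2.37% of all 27457 symbols with a window. Those symbols include genes not measured here, and the members were chosen as replication genes, so the 2 shares are no test. Of the 12 members at least 0.2 below their mean in nicotine 1 h, 8 had a window and 6 a match. Of the 6 members at least 0.2 above, 6 had a window and 3 a match. The windows below belong to the 2 lowest and the 2 highest members in nicotine 1 h that had 1 window and a match, with the matched words in capitals. The match starts at position -37 from the gene start in Tyms, at -172 in Pola1, at 8 and 33 in Cdt1 and at -20 in Ung, and those of Pola1 and the first of Cdt1 are on the other strand.
Tyms, chr9:120776034-120776333, minus strand: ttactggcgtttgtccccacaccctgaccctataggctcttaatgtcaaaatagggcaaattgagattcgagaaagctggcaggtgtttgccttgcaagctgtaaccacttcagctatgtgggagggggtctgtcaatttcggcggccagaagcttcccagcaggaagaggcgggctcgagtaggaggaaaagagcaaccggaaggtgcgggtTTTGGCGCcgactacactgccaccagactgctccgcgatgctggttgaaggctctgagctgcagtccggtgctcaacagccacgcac
Pola1, chrX:62342306-62342605, minus strand: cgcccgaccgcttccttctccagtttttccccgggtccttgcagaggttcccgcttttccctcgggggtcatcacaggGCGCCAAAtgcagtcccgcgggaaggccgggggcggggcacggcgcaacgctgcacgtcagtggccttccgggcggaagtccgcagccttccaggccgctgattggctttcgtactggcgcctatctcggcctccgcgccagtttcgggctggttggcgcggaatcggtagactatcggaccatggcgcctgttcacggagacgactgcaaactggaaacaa
Cdt1, chr19:67528999-67529298, plus strand: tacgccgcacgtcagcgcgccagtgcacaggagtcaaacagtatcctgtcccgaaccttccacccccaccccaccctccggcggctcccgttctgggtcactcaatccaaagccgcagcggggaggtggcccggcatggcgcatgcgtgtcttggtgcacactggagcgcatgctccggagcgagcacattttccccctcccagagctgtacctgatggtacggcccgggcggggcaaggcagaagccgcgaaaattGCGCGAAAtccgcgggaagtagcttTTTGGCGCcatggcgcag
Ung, chr12:48153996-48154295, minus strand: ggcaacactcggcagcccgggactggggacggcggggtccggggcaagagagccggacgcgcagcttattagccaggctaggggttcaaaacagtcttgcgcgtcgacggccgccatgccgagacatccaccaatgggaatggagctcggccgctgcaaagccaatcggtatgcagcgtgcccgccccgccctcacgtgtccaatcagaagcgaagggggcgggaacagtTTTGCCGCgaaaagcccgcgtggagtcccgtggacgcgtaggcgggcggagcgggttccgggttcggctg

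Matches of these words occurred among members that were low and among members that were high in nicotine 1 h. A match describes the letters of the window and says nothing of binding in these cells.

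The time comparison asked how 12 h libraries differed from 1 h libraries over PNU, nicotine and MLA, with 3 libraries on each side and the compound as a block (limma on log2 levels, Benjamini-Hochberg over 11190 genes). No member and no gene passed an adjusted p of 0.05 (0% of genes), and at an unadjusted p under 0.05 there were 56 genes (0.5%) and 0 members. The median log2 change of the members was -0.008, against 0.007 over all genes tested, with 24 members above and 28 below 0. The highest estimate was 0.15 ± 0.12 for Prim2 and the lowest -0.15 ± 0.11 for E2f1 (SE, 3 libraries on each side; limma adjusted p of 1.00 for both). The 95% confidence interval lay within 1.5-fold for 49 of 52 members and within 2-fold for all 52.

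This result rested on nicotine, whose 12 h and 1 h libraries were the farthest apart over the members. Without nicotine 1 h the fit called 484 of 11190 genes and 2 of 52 members. Without nicotine 12 h it called 464 genes and 2 members. The members' share was thus close to that of all genes. Either fit compares 12 h with 1 h in PNU and MLA only, leaves 1 residual degree of freedom and takes the spread largely from all genes together. Slbp was called lower by -0.31 ± 0.08 (SE; limma adjusted p of 0.00455 without nicotine 1 h and 0.00427 without nicotine 12 h). Tyms was called lower by -0.33 ± 0.08 (limma adjusted p of 0.00207 and 0.00294). With all 6 libraries the estimates were 0.11 ± 0.27 for Tyms, on the other side of 0, and -0.02 ± 0.19 for Slbp (limma adjusted p of 1.00 for both). Of the 52 members 35 were below 0 with either nicotine library left out, with a median of -0.062, against 0.002 over all genes.

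Taken compound by compound, Tyms was 1135 in PNU 12 h against 1429 in PNU 1 h, a log2 fold of -0.33 (95% interval of the reads -0.44 to -0.23). In MLA it was 1387 at 12 h against 1746 at 1 h, also -0.33 (-0.43 to -0.24). In nicotine it was 1777 at 12 h against 889 at 1 h, a log2 fold of 1.00 (0.89 to 1.11). Tyms was thus lower at 12 h in PNU and MLA and higher at 12 h in nicotine. Pola1 differed by 0.77 in nicotine, against -0.19 in PNU and -0.19 in MLA. Ccne2 differed by 0.72 in nicotine, against -0.12 in PNU and -0.29 in MLA, and Dtl by 0.61, against -0.24 and -0.25. Cdt1 went the other way in nicotine, with -0.62 (-0.72 to -0.52), against 0.14 in PNU and 0.04 in MLA. These 5 were the members past 1.5-fold between the nicotine libraries, a size that 14.7% of genes reached. A smaller log2 fold of at least 0.32 was reached by 17 of 52 members and 41% of genes. Between the PNU libraries 0 members passed 1.5-fold (1.89% of genes) and 1 passed 0.32 log2 units (10.9%). Ccne1 was the highest with 0.24. Between the MLA libraries 0 members passed it (1.36% of genes), 2 passed 0.32 log2 units (9.31%), 38 of 52 were below 0 with a median of -0.08 (48.0% of genes above 0, median -0.008; members' median -0.04 with scaling by total reads), and Slbp was the lowest with 5768 in MLA 12 h against 7656 in MLA 1 h, a log2 fold of -0.41 (-0.45 to -0.36).

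**Figure D4:**
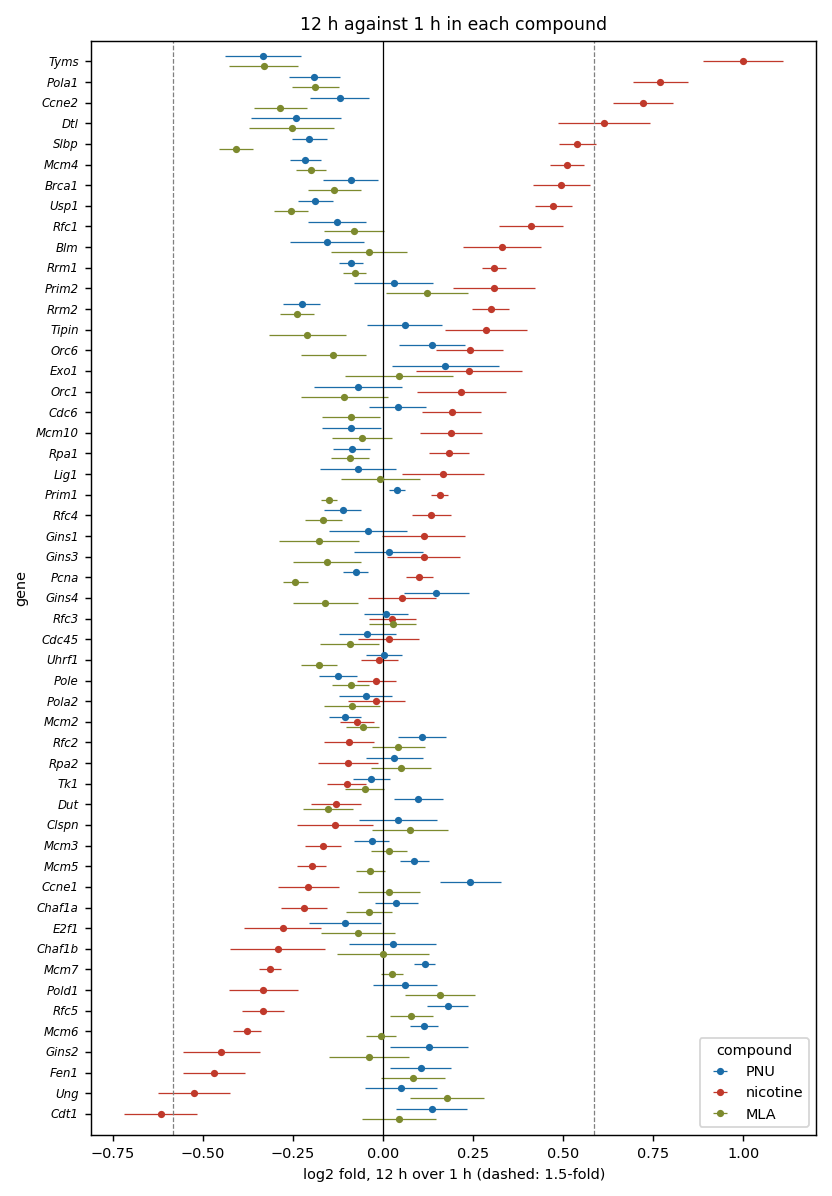
Log2 fold of 12 h over 1 h for each of the 52 members (rows, sorted by nicotine) in PNU, nicotine and MLA, with 95% intervals of the reads. Nicotine runs from -0.62 for Cdt1 to 1.00 for Tyms, while PNU and MLA stay within 1.5-fold (dashed lines) for all 52 members.

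The next comparison set the 4 libraries of the receptor activators PNU and nicotine against the 2 MLA libraries, with time as a block. No member and no gene passed an adjusted p of 0.05 (0% of 11190 genes), and at an unadjusted p under 0.05 there were 88 genes (0.786%) and 0 members. The members' median was -0.015 (0.003 over all genes), and 0.012 without nicotine 1 h, where again 0 members had an unadjusted p under 0.05. Without nicotine 12 h 4 of 52 members did, all lower in PNU and nicotine. So did 119 of 11190 genes higher and 503 lower, with none past an adjusted p of 0.05 in limma. Rfc2, a clamp loader subunit, had the highest estimate with 0.19 ± 0.09 and Tyms the lowest with -0.30 ± 0.26 (SE, 4 and 2 libraries; limma adjusted p of 0.996 for both). The interval of Tyms, -0.90 to 0.30, extends past 1.5-fold, as it did for 5 of the 52 members.

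**Figure D5:**
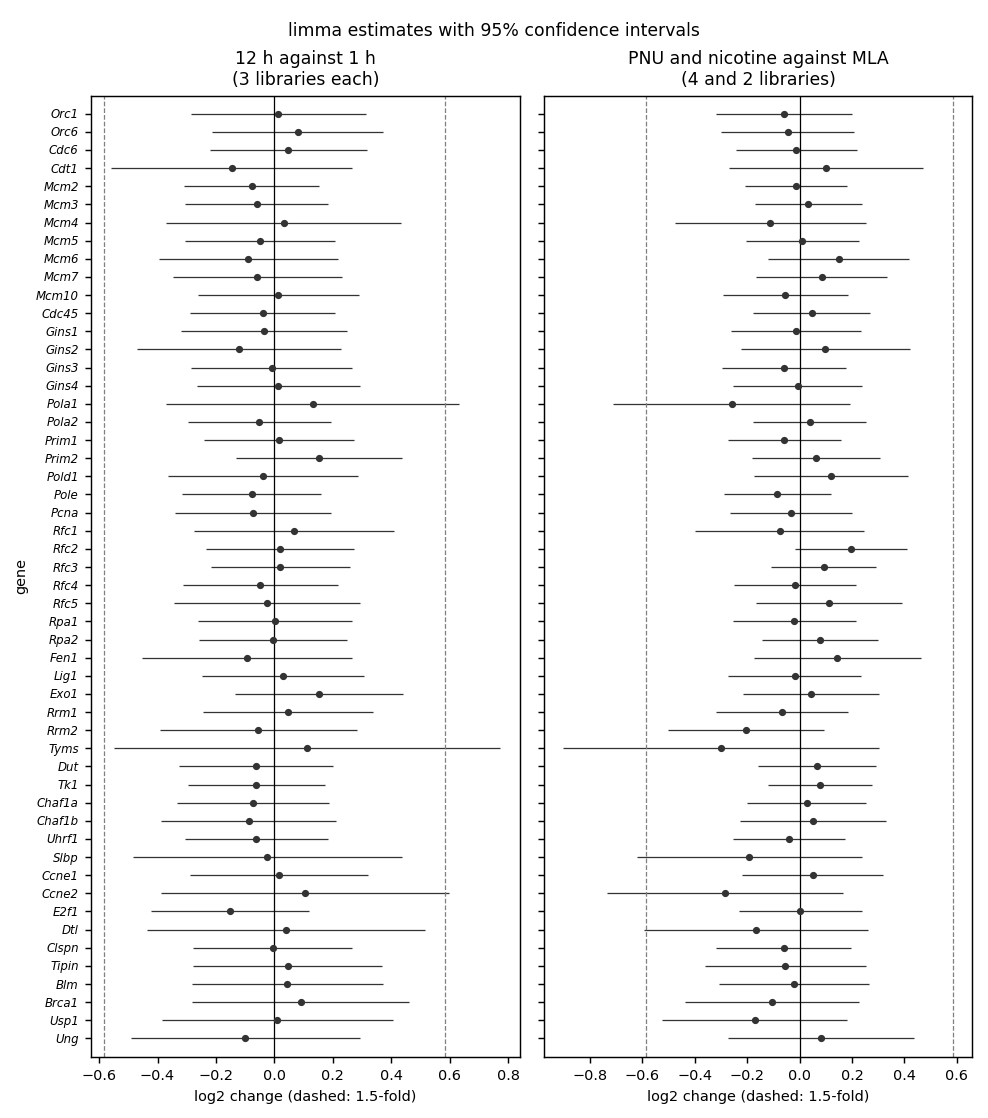
Estimated log2 change of each of the 52 members (rows) with 95% confidence intervals from limma, for 12 h against 1 h (left, 3 libraries each) and for PNU and nicotine against MLA (right, 4 and 2 libraries). Every interval includes 0 in both fits.

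Between single libraries at the same dose and time, PNU 1 h and MLA 1 h had 0 members past 1.5-fold (1.22% of genes) and 1 past 0.32 log2 units (8.65%). Ccne2 was the lowest, with 2205 in PNU 1 h against 2928 in MLA 1 h, a log2 fold of -0.41 (-0.49 to -0.33), and Pold1 the highest with 0.23. PNU 12 h and MLA 12 h had 0 members past either size (1.99% and 12.1% of genes), and Tyms was the lowest with -0.29 and Rfc2 the highest with 0.23. Tyms, Pola1 and Ccne2 were the 3 lowest members at both times. PNU at 100 nM and nicotine at 1 µM were given at different doses, so their values stand side by side only. Tyms had 1429 in PNU 1 h and 889 in nicotine 1 h, and 1135 in PNU 12 h and 1777 in nicotine 12 h. It was the 1 member past 1.5-fold at each time, higher in PNU at 1 h and lower in PNU at 12 h, beside 8.68% of genes at 1 h and 4.2% at 12 h. At 0.32 log2 units or more there were 13 of 52 members at 1 h (30.2% of genes) and 5 at 12 h (21.7%).

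Against DMSO 12 h, the only vehicle library, no member differed by 1.5-fold in PNU 12 h (2.78% of genes), nicotine 12 h (2.43%) or MLA 12 h (2.15%). At 0.32 log2 units there were 1, 3 and 1 members (12.5%, 13.4% and 10.9% of genes). The 3 comparisons share the DMSO library. PNU 12 h had Ccne1 as the highest member, with 2153 against 1742 in DMSO 12 h, a log2 fold of 0.31 (0.22 to 0.40). Its lowest was Ccne2, with 2029 against 2602, a log2 fold of -0.36 (-0.44 to -0.28). The 2 cyclin E genes thus lay at opposite ends of the list. In nicotine 12 h the highest was Tyms, with 1777 against 1303 in DMSO 12 h, a log2 fold of 0.45 (0.34 to 0.55), and the lowest E2f1, with 1214 against 1601, a log2 fold of -0.40 (-0.51 to -0.29). In MLA 12 h Clspn was the highest with 0.21 (0.10 to 0.32) and Tipin the lowest with -0.39 (-0.49 to -0.29), at 1195 against 1565 in DMSO 12 h. The members' median log2 fold was -0.01 for PNU 12 h, 0.0004 for nicotine 12 h and -0.04 for MLA 12 h, with 24, 26 and 19 of 52 above 0, beside 51.2%, 49.9% and 48.7% of genes. With scaling by total reads the median for MLA 12 h was -0.008. DMSO 12 h was the library with the highest levels of the stress-responsive genes Fos (394), Jun (3579.6) and Atf3 (613). These 3, all that were measured of a list of 7, were at least 1.5-fold lower in each of the compound libraries at 12 h, and their part in the replication genes' values was not tested.

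Over the PNU time course the slope per doubling of time was fitted to the 5 libraries from 30 min to 12 h. No member and no gene passed an adjusted p of 0.05 (0% of 11190 genes), and at an unadjusted p under 0.05 there were 404 genes (3.61%) and 0 members. Slopes ran from -0.080 ± 0.041 for Tyms to 0.053 ± 0.029 for Ccne1 (SE, 5 libraries; limma adjusted p of 0.999 for both), with a median of -0.007. In limma without PNU 3 h, 1 of 52 members higher and 5 lower over time had an unadjusted p under 0.05. So did 311 of 11190 genes higher and 478 lower. Without PNU 8 h 2 of 52 members did, both lower, as did 232 of 11190 genes higher and 563 lower. None of these members passed an adjusted p of 0.05 in limma. Between neighbouring times 0 members passed 1.5-fold. That share of genes was 0.582% from 30 min to 1 h, 4.79% from 1 h to 3 h, 5.03% from 3 h to 8 h and 3.79% from 8 h to 12 h. At 0.32 log2 units there were 0, 10, 5 and 1 members in these steps, beside 4.36%, 25.4%, 22.6% and 20% of genes. Cdt1 was highest of the members in PNU 3 h against PNU 1 h, with a log2 fold of 0.56 (0.46 to 0.66), and lowest in PNU 8 h against PNU 3 h, with -0.49 (-0.61 to -0.38). In the same steps Fen1 had 0.46 and -0.44, and Tyms, with the opposite signs, -0.52 and 0.37. The largest values in both steps thus belong to the single 3 h library. In PNU 12 h against PNU 8 h Rrm2 was the lowest with -0.35 (-0.41 to -0.29) and Rfc2 the highest with 0.29 (0.20 to 0.37). In PNU 1 h against PNU 30 min Gins1 was the highest with 0.23 and Exo1 the lowest with -0.17.

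Genes around the replication machinery were read from 4 further lists. Measured in all libraries were 33 of 34 other replication genes, 26 of 26 other E2F-responsive genes, 21 of 21 genes of E2F, retinoblastoma and CDK control and 29 of 30 G2/M and mitosis genes. In each of the 3 limma fits 0 genes of each list passed an adjusted p of 0.05. At an unadjusted p under 0.05 the time course had 1 other replication gene, 1 other E2F-responsive gene and 3 control genes, all lower with time, and the other 2 fits had 0 in these lists. The median G2/M gene stood at 0.14 log2 units from its own mean in nicotine 12 h, at -0.23 in nicotine 1 h and at -0.15 in PNU 3 h, while the median replication gene stood at 0.027, -0.050 and -0.012. Anln, a cytokinesis scaffold, had 4434 in nicotine 12 h and 2149.8 in nicotine 1 h, its highest and lowest levels. The mitotic kinesin Kif11 (5819 and 3227) and the checkpoint kinase Bub1 (5679.9 and 3161) had their extremes in the same 2 libraries. So did Atad2, an ATPase-bearing bromodomain protein of the E2F-responsive list, with 4637 and 1750.4, and Atad5, which unloads PCNA, with 1797 and 849.7. Other genes with wide ranges had their highest level elsewhere. Rrm2b of the other replication genes ran from 45.5 in nicotine 1 h to 102 in PNU 8 h. Rbl1 of the E2F-responsive list ran from 532 in nicotine 1 h to 1103 in MLA 1 h. Between nicotine 12 h and nicotine 1 h, 7 of 29 G2/M genes, 6 of 33 other replication genes and 5 of 25 other E2F-responsive genes were at least 1.5-fold higher and 0 of them lower, while 1 of 21 control genes was higher and 2 were lower. Of all genes 9.46% were higher and 5.23% lower. Of the control genes Myc had its highest level of 2164 in DMSO 12 h and Ccnd1, the G1 cyclin D1, of 1047 in nicotine 1 h.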

How the data were processed

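RNA from 10 RPE-J libraries, 1 per condition, was polyA-selected, per the labels' protocols. Trimmomatic 0.36, STAR 2.5.2b, Subread 1.5.2 with featureCounts, and DESeq2 are named in the submitters' processing notes. Build, annotation and strandedness are not given in these sources. The deposited files are 39 tables of 13015 to 13781 genes, 1 table per library pair. Per the file headers a row holds the level in both libraries, their log2 fold change, and the p-value before and after adjustment. Over all deposited tables the lowest adjusted p-value was 0.999715, and 5 of 2028 values of members had an unadjusted p-value under 0.05. The deposited level is a signal that behaves as whole reads divided by a size factor set anew in each table. Its lowest table means were 8.32 to 10.5, so genes below were not analysed here. After division by the value of 1 read, 100% of values were whole within 0.01. They were used for scaling and for intervals, not for a count model. Libraries were scaled together by the median of ratios over 13391 genes with reads in all 10.

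Library numbers 1 to 9 are tied to samples by the file records, and number 10 was assigned to PNU 12 h as the only one remaining. The fits used limma 3.58.1 (R 4.3.3) with an intensity trend on log2(level + 1) over 11190 genes with a mean level of at least 50, and Benjamini-Hochberg adjustment over all of them. Single libraries were compared without a test, by the log2 ratio of levels with exact Clopper-Pearson 95% intervals of the reads and a size rule of 1.5-fold. Intervals cover counting error only, since reads are not independent molecules. Nothing in the labels says whether libraries came from separate cultures, so p-values measure only the spread between these libraries. Only the fit of 12 h against 1 h was tested on simulated data, in which changes were the same in PNU, nicotine and MLA. The simulation does not cover changes that differ between compounds.

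Members, roles and gene lists were chosen with earlier results of these data known. Every member may be named. Values in every library or as lowest, median and highest were given for the members with the largest ranges, overall and by role, and in each comparison for those past the call or else for the highest and lowest. Up to 3 genes per other list were named by range, leaving out genes whose mean level was under 50. Levels of all other named members, the patterns over 4 libraries and the leaving out of nicotine 1 h and PNU 3 h were picked after values were seen. Promoter windows came from RefSeq (GRCr8).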

Additional observations from a re-analysis of the deposited data

Results flagged for a closer look

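In 4 members the libraries at 12 h and 1 h differed by at least 1.5-fold in nicotine and in the opposite direction in both PNU and MLA, with intervals of the reads that leave out 0. The same held for 5.22% of the 11190 genes and for 7.25% of the genes at the members' levels, beside 7.69% of the members. The members' share was thus close to that of the genes at their levels. The log2 fold of 12 h over 1 h in nicotine was 0.9994 for Tyms, 0.7705 for Pola1, 0.721 for Ccne2 and 0.6142 for Dtl. In PNU and MLA it was -0.33 and -0.33 for Tyms, -0.19 and -0.19 for Pola1, -0.12 and -0.29 for Ccne2 and -0.24 and -0.25 for Dtl. Each value compares 2 libraries and the difference was not tested.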

How the results depend on the processing

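The 3 limma fits were repeated with other scalings, pseudocounts, level filters, without the block and with each library left out. The count of members past an adjusted p of 0.05 stayed at 0 in all of them, except in the time comparison without 1 of the nicotine libraries. There, leaving out each library in turn gave 0 to 484 of 11190 genes and 0 to 2 of 52 members. The slope over the PNU time course had 3 genes past the threshold, against 0, with scaling by total reads, with a mean level of at least 10 and with no filter, and 0 to 19 with a library left out (19 without PNU 1 h, 15 without PNU 30 min), none of them members. The cause was not tested.

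The number of members past the size rule depended on its fold. With a log2 fold of at least 0.32 in place of 0.58, nicotine 12 h against nicotine 1 h had 17, PNU 1 h against nicotine 1 h 13, PNU 3 h against PNU 1 h 10, PNU 12 h against nicotine 12 h 5, PNU 8 h against PNU 3 h 5, nicotine 12 h against DMSO 12 h 3 and MLA 12 h against MLA 1 h 2. PNU 12 h against DMSO 12 h, PNU 12 h against PNU 1 h, PNU 12 h against PNU 8 h, MLA 12 h against DMSO 12 h and PNU 1 h against MLA 1 h had 1 each. At 2-fold there were 0 between the nicotine libraries and between PNU and nicotine at either time. Scaling by total reads moved the members' median relative to their own means to 0.013 for PNU 30 min, 0.0036 for PNU 8 h, 0.011 for PNU 12 h and 0.0027 for MLA 12 h, against -0.0029, -0.029, 0.028 and -0.024, so its sign changed in PNU 30 min, PNU 8 h and MLA 12 h. In alternatives chosen after seeing the data, the number of members whose levels spanned at least 1.5-fold was 7 with TMM scaling, 6 with scaling by total reads and 1 without nicotine 1 h and PNU 3 h, against 7. No member past 1.5-fold between 2 libraries changed sign under another scaling. Tyms was called lower with either nicotine library left out and had a log2 change of 0.11 with all libraries.

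The members' medians, none of them tested, were close to 0 and changed sign with the setting. With a library left out they ran from -0.062 to 0.017 in the time comparison, from -0.066 to 0.039 in PNU and nicotine against MLA and from -0.020 to 0.0040 for the slope. With scaling by total reads they were 0.0055, -0.027 and -0.0093, against -0.0076, -0.015 and -0.0073.

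TMM factors were computed with separate code. Count tests planned for recovered reads were not run: the levels were whole after division by the value of 1 read, but the tables hold no low levels on which that value could be checked directly. The labels carry no replicate numbers, so no block by replicate could be fitted. The time comparison paired 12 h with 1 h within each compound, and without the compound block it had 0 genes and 0 members past an adjusted p of 0.05. Depth limits small differences: the median half-width of a member's counting interval was between 0.075 and 0.10 log2 units, while the members' median absolute difference between 2 libraries was between 0.0487 and 0.230. In PNU 1 h against PNU 30 min 27 of 52 members were above 0 and 25 below, beside 48.0% of genes above 0. The members' median log2 fold there was 0.011, against -0.006 over all genes. The lack of replicate libraries limits every comparison of 2 conditions.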
